A study of Mus musculus with 4 samples.

Results

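The 40 genes described here are the cell cycle genes measured in castrated mouse prostate tumours. They were taken by gene symbol from the 32285 genes of the count matrices and fall into 19 genes of DNA synthesis (S phase) and 21 genes of G2 and mitosis (G2/M). The 4 tumours, 1 from each mouse, were taken whole for single-cell RNA libraries by a 10x Genomics method, which reads the 3' end of each transcript and counts it as a unique molecular identifier (UMI). All 4 mice share PB-Cre, the mutant ubiquitin ligase adaptor SpopF133V and the Cre reporter mTmG. The 2 PCSp mice also carry Chd1L/L, a floxed allele of a chromatin remodeller gene, which the 2 PSp mice do not. Castration was done at an age of 9 months in every mouse, and tumours were taken after 1 further month, so no group without castration, without Cre or with intact Spop is compared. PB-Cre drives the recombinase from the probasin promoter, which is active in prostate epithelial cells.

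In the cell cycle, E2F factors switch on the genes of DNA replication at the entry to S phase. These include the MCM helicase, its loaders Cdc6 and Cdt1, the sliding clamp Pcna and the enzymes that make nucleotides. The genes of G2 and mitosis come on later, through complexes that bind CHR and CCAAT elements of their promoters. They encode the mitotic kinase Cdk1 and its cyclins, the Aurora and Polo kinases, spindle motors, the spindle checkpoint and the machinery that destroys the cyclins. Many luminal cells of the prostate epithelium depend on androgen for survival, and castration removes the main source of that hormone.

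The promoters printed here belong to the 2 G2/M genes of highest mean level in epithelial-like cells among those with both CHR and CCAAT letters, and to the 2 such S genes among those with an E2F spelling. They show what those elements look like. RefSeq promoter windows (GRCm38.p6, 250 bases before to 50 after a start) were found for 18 of the 21 G2/M and 16 of the 19 S genes. Both strands were searched for TTTGAA, the letters of the CHR element, for CCAAT, and for any of 4 E2F spellings, TTTGGCGC, TTTCCCGC, TTTGCCGC and TTTCGCGC. Capitals mark the matches, which are printed as their reverse complements where they lie on the other strand. In Ube2c a CCAAT match shares bases once with its reverse complement. Each stretch is written 5' to 3' on the strand of its gene. The stretches are chr11:99024197-99024426 (minus strand, Top2a), chr2:164769691-164769915 (plus strand, Ube2c), chr5:138172031-138172058 (minus strand, Mcm7) and chr19:38930918-38930945 (plus strand, Hells). Their starts are RefSeq starts, and Mcm7 has 2 windows, of which 1 is printed. In the GENCODE M21 annotation the Mcm7 and Hells stretches lie inside the genes (chr5:138164583-138172422 and chr19:38930915-38971051), as does the end of the Ube2c stretch (gene from chr2:164769898).
Top2a: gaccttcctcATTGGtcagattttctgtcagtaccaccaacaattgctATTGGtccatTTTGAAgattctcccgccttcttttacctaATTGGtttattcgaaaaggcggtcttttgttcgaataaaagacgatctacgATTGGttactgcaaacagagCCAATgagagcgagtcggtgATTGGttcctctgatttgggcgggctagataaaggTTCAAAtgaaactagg
Ube2c: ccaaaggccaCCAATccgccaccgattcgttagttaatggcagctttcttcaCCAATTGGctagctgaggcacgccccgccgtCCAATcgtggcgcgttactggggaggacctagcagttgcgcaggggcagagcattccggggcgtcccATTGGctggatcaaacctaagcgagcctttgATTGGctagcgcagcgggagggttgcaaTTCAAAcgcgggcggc
Mcm7: atttcgaaccGCGGGAAAcagggtgtcc
Hells: accaccgggtTTTCCCGCgaaagagaag
The CHR letters were in a window of 44.4% of the 18 G2/M genes and 6.25% of the 16 S genes, against 18.3% of the 27025 genes with a promoter in the table. CCAAT was in 88.9% of the G2/M and 62.5% of the S genes, against 37.5% of all. The E2F spellings were in 5.56% of the G2/M genes (Cdk1) and 37.5% of the S genes (Mcm5, Mcm6, Mcm7, Cdc6, Hells and Uhrf1), against 2.16% of all. A match describes letters in a window and shows no binding.

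The deposited libraries held 66874620 to 90839725 UMIs over 6539 to 9656 barcodes, and 11 to 27 barcode sequences were shared by any pair of libraries, at most 0.372% of the smaller one. After filters, 26702 cells remained. The 230 cell cycle genes of all lists used here were kept out of the clustering, so that a cell's class was not set by them. Clusters were named from marker genes as epithelial-like (12899 cells), neutrophil-like (5942), fibroblast-like (3261), macrophage- and monocyte-like (2182, macrophage-like for short), T and NK-like (1121), endothelial-like (801), smooth muscle- and pericyte-like (221), B and plasma-like (190) and glial-like (85). Within the epithelium 3581 cells were basal-like, 2019 luminal-progenitor-like and 52 neuroendocrine-like, and 7247 stayed unnamed. In epithelial-like cells Chd1 itself had 91.4 (PSp 1), 77.9 (PSp 2), 59.99 (PCSp 1) and 56.3 (PCSp 2) CPM, which stands for counts per 1000000 UMIs, but a 3' tag may lie outside the deleted part and so does not test the deletion.

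Cycling cells were counted in 2 ways after each cell had been thinned at random to 1000 UMIs, so that deep cells had no better chance to be called. A cell with a UMI of at least 2 different G2/M genes is called G2/M-high, and a cell with at least 3 different S genes that is not G2/M-high is called S-only. In macrophage-like cells 103 of 1629 were G2/M-high, in epithelial-like cells 219 of 11584, in T and NK-like cells 25 of 1076, and in neutrophil-like cells, which are past division as mature cells and serve as the background, 12 of 5634. The macrophage-like share was 5.59% (PSp 1), 8.22% (PSp 2), 5.22% (PCSp 1) and 6.65% (PCSp 2). In the same order the epithelial-like share was 2.29%, 2.06%, 1.71% and 1.60%. Every macrophage-like share thus lay above every share of the whole epithelium, while the basal-like shares given below overlapped the macrophage-like ones.

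Within mice the macrophage-like share was higher than the epithelial-like one by 4.51 ± 1.35 percentage points (SD, n = 4 mice), in 4 of 4 mice. The exact two-sided sign-flip p was 0.125, the smallest that 4 mice allow. The T and NK-like share was 1.65%, 2.76%, 2.33% and 2.41% (PSp 1, PSp 2, PCSp 1, PCSp 2), higher than the epithelial-like one in 3 of 4 mice (difference 0.372 ± 0.680 points, exact p = 0.375). With cells thinned to 3000 UMIs the T and NK-like share was higher in 4 of 4 mice, by 2.27 ± 0.715 points, but the neutrophil-like share was then 0% to 4.08%, with 84.4% of those cells too shallow to be used. The neutrophil-like share was 0%, 0.226%, 0.155% and 0.339%, below the epithelial-like one in 4 of 4 mice with a difference of -1.74 ± 0.438 points (exact p = 0.125). So the epithelial-like, macrophage-like and T and NK-like shares were all above this background at 1000 UMIs. The background was measured at median depths of 1635 to 2743 UMIs per cell against 7576 to 13649.5 in epithelial-like, 2533 to 3405 in macrophage-like and 3361 to 5200.5 in T and NK-like cells.

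**Figure D1:**
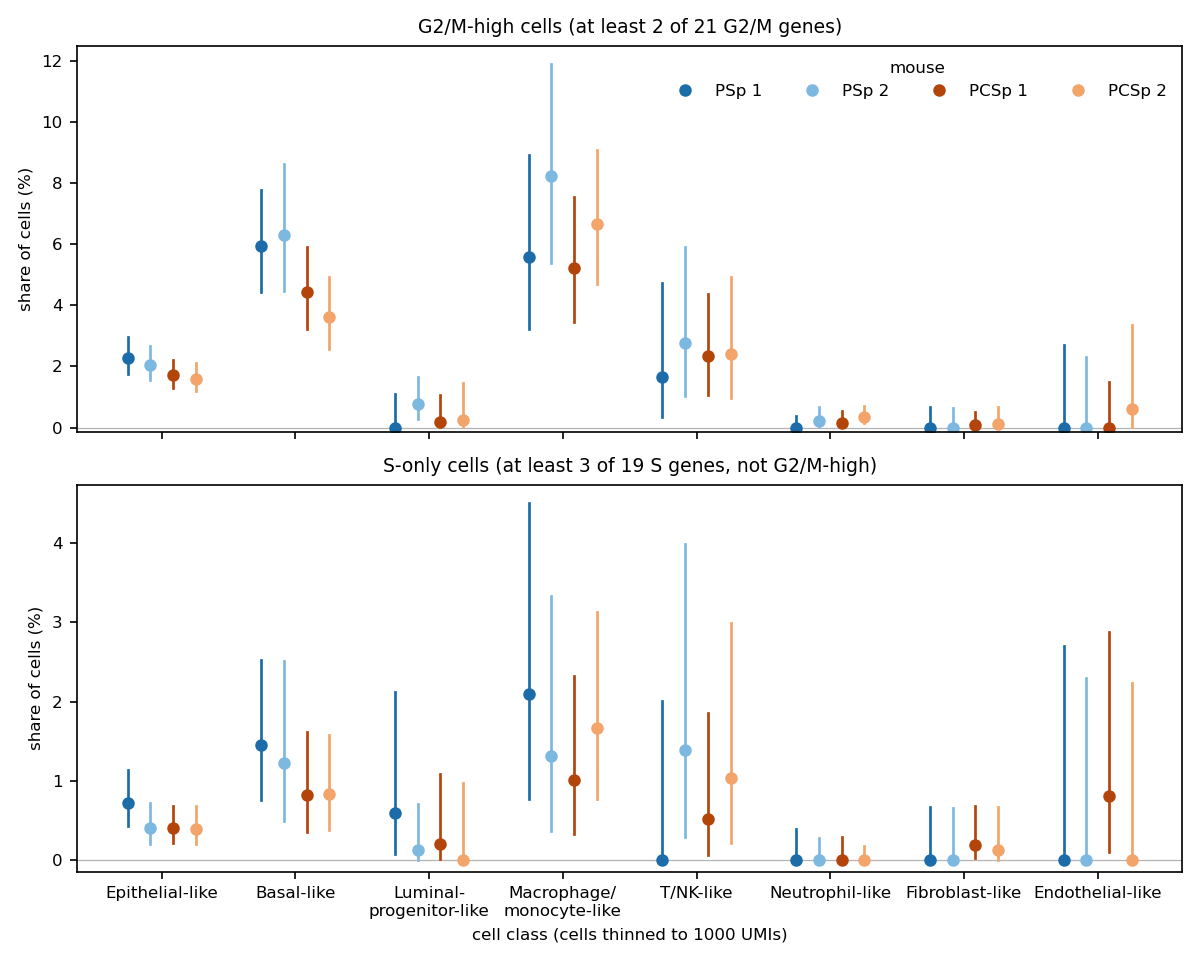
Shares of G2/M-high (top) and S-only (bottom) cells per cell class and mouse, in percent of the cells with at least 1000 UMIs, with exact Clopper-Pearson 95% intervals as bars. Macrophage-like cells stand at 5.22% to 8.22% G2/M-high, basal-like cells at 3.62% to 6.30% with both PSp mice above both PCSp mice, and neutrophil-like, fibroblast-like and luminal-progenitor-like cells at under 1%.

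The exact Clopper-Pearson 95% interval of a single mouse ran from 3.23% to 8.93% for macrophage-like cells of PSp 1 and from 1.74% to 2.96% for its epithelial-like cells, and such intervals cover counting error only. Thinning left out 10.2% of epithelial-like, 25.3% of macrophage-like, 4.01% of T and NK-like and 5.18% of neutrophil-like cells as too shallow. Without thinning the G2/M-high share was 6.91% to 11.5% in epithelial-like, 10.0% to 13.1% in macrophage-like, 6.54% to 11.2% in T and NK-like and 0.441% to 1.02% in neutrophil-like cells. Many cells lay near the limit: 54 of the 219 G2/M-high epithelial-like cells had exactly 2 of the genes, and 364 others had exactly 1. The same counts were 26 of 103 and 94 in macrophage-like cells, 4 of 25 and 104 in T and NK-like cells, and 11 of 12 and 379 in neutrophil-like cells.

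Of the 12 neutrophil-like cells called, 7 held a UMI of Kif23, a motor of the central spindle, and 5 cells remained when Kif23 was not counted, an alternative added after the data were seen. In fibroblast-like cells 2 of 3017 were G2/M-high, and in endothelial-like cells 1 of 705. None of 186 B and plasma-like or 205 smooth muscle- and pericyte-like cells was called, which allows shares of up to 1.61% and 1.46% at 3 counts. None of 51 neuroendocrine-like cells was called either, which allows up to 5.88%.

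The macrophage-like share rested in part on 1 shallow cluster. That cluster had a median of 984.5 UMIs per cell, was led by the complement and antigen presentation genes C1qa and Cd74, and had 9.50% G2/M-high cells. Without it, an alternative added after the data were seen, the macrophage-like share was 2.25%, 7.57%, 3.03% and 6.19%. In PSp 1 it then lay just under the epithelial-like 2.29%, and in the other 3 mice above. G2/M-high macrophage-like cells had a median of 2.37 UMIs of the 10 epithelial markers per 10000, against 2.86 in the cells that were not cycling. Their macrophage markers stood at 291 per 10000 against 402.

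Inside the epithelium the cycling cells lay mostly in sub-clusters named basal-like. Of the 219 G2/M-high cells, 167 were basal-like, 8 luminal-progenitor-like and 44 unnamed by their sub-cluster. At least 20 UMIs of the basal keratins Krt5 and Krt14 per 10000 were found in 37.4% of the 219 cells. In cells neither G2/M-high nor S-only it was 19.4%. The G2/M-high cells were higher in each mouse, with the least difference in PCSp 2 (26.5% against 21.9%). The basal-like share was 5.94%, 6.30%, 4.42% and 3.62%, against 0%, 0.764%, 0.195% and 0.264% in luminal-progenitor-like cells. Basal-like cells were higher in 4 of 4 mice, by 4.77 ± 1.19 points (exact sign-flip p = 0.125). Luminal-progenitor-like cells were the deeper of the pair, with medians of 18153 to 29685 UMIs against 11805 to 20467. Their 0 of 338 cells in PSp 1 allow a share of up to 0.888%.

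A basal-like sub-cluster of 138 cells, led by the histone gene Hist1h1b, held 95 of the 219 G2/M-high epithelial cells, and 76.0% of its cells with 1000 UMIs were G2/M-high. The replication-dependent histones that lead it were not among the genes kept out of the clustering. This sub-cluster met 6 of 6 basal markers, though its 10 leading genes held none of them. Without it the basal-like share was 2.80%, 2.41%, 2.32% and 1.43%, still above the luminal-progenitor-like share in every mouse. The remaining basal-like sub-clusters differed. The largest, 1855 cells led by Krt14, had 0.560%, 0.322%, 1.07% and 0.564% G2/M-high cells, in PSp 2 below the luminal-progenitor-like share. Over all mice the sub-cluster of 1018 cells led by Krt5 had 4.72%, that of 310 cells 0.330% and that of 260 cells 6.85%.

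S-only cells numbered 54 epithelial-like, 24 macrophage-like, 8 T and NK-like and 0 of 5634 neutrophil-like cells, where 0 allows up to 0.0533%. These counts cannot be ranked against the G2/M-high counts, because the S-only rule needs 3 genes, not 2, and leaves out G2/M-high cells. In the same order of classes, a further 161, 38, 42 and 33 cells had exactly 2 S genes and were not G2/M-high. The share was 0.723%, 0.398%, 0.397% and 0.392% in epithelial-like cells and 2.10%, 1.32%, 1.00% and 1.66% in macrophage-like cells, so the macrophage-like share was the higher one in each mouse.

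In epithelial-like cells the G2/M-high cells held 72.7% of the UMIs of the 21 G2/M genes but 15.2% of those of the 19 S genes, and 78.5% of the S gene UMIs lay in cells of neither kind. G2/M-high cells were chosen on the G2/M genes, so their G2/M levels are a description. Across the G2/M genes, the cells of neither kind held 14.9% (Nusap1, a spindle microtubule protein) to 46.3% (Kif23) of a gene's UMIs. Across the S genes they held 30.9% (Pclaf, which binds the Pcna clamp) to 93.7% (Cdc6, which loads the helicase). The genes at the ends of these ranges were chosen after their values were seen.

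For the S genes of epithelial-like cells, the level in G2/M-high cells was set against that in cells of neither kind. The G2/M-high rule did not use the S genes, but the S-only rule did, and S-only cells are absent from the cells of neither kind. The folds here and in macrophage-like cells are therefore a description too. In epithelial-like cells the folds ran from 1.11 for Cdc6 to 59.2 for Pclaf, with a median of 4.92. Pclaf stood at 290.0 CPM against 4.90, and Rrm2, the regulated subunit of ribonucleotide reductase, at 64.7 against 3.45. Pcna stood at 134 CPM in G2/M-high, 221 in S-only and 63.3 in the other cells, so most of its UMIs (90.8%) came from cells of neither kind. Cdc6 was 6.93 CPM in G2/M-high and 6.24 in the other cells. Among the S genes of macrophage-like cells the folds ran from 2.56 (Pcna) to 39.6 (Rrm2), with a median of 7.14.

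The levels of single genes per class follow, summed per mouse. Against epithelial-like cells, edgeR with the mouse as a block called 20 of 21 G2/M and 14 of 19 S genes higher in macrophage-like cells, where 30.6% of the 14777 genes tested were called higher and 37.9% lower. Mki67, the proliferation antigen, stood at 40.5, 90.4, 84.6 and 91.8 CPM in macrophage-like cells (PSp 1, PSp 2, PCSp 1, PCSp 2) and at 23.1, 18.6, 14.2 and 15.6 CPM in epithelial-like cells. PSp 1 was the low macrophage-like value, and the classes did not overlap. The log2 fold change was 2.44 ± 0.23 (SE; edgeR adjusted p = 2.1e-06).

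Top2a, which untangles DNA, was 33.8, 60.9, 72.0 and 82.1 CPM in macrophage-like cells and 28.9, 22.1, 19.6 and 19.4 CPM in epithelial-like cells, again without overlap (log2 fold change 1.80 ± 0.22, edgeR adjusted p = 2.39e-05). E2f1, which switches on S phase genes, was 15.8, 12.1, 14.6 and 11.6 CPM against 1.87, 1.70, 1.59 and 2.24 CPM (3.20 ± 0.22, edgeR adjusted p = 1.41e-07). Pcna was 104 to 117 CPM in the 4 mice against 60.2 to 74.8 CPM (1.08 ± 0.07, edgeR adjusted p = 1.05e-07), and Mcm5, a helicase subunit, 7.51 to 18.5 CPM against 5.28 to 7.44 CPM (1.54 ± 0.24, adjusted p = 0.000146). The 1 gene called lower was Cdc6 (log2 fold change -1.54 ± 0.33), at a mean of 1.76 CPM against 6.41. The median over the G2/M genes was 1.43 and over the S genes 0.86 on the log2 scale, against -0.12 over all genes tested. The reference in these calls was the whole epithelium, and basal-like cells alone were not tested against macrophage-like cells. In basal-like cells the G2/M genes summed to 495 ± 123 CPM (SD, n = 4 mice) and the S genes to 422 ± 72.6 CPM. The macrophage-like sums were 422 ± 143 and 400 ± 46.1 CPM.

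T and NK-like cells had 17 of 21 G2/M and 17 of 19 S genes called higher, where 28.8% of 14739 genes were called higher and 41.2% lower. Top2a was 139, 71.4, 95.8 and 80.4 CPM (log2 fold change against epithelial-like cells 2.20 ± 0.11, edgeR adjusted p = 4.25e-19) and Mki67 was 74.9, 56.6, 83.3 and 52.7 CPM (2.05 ± 0.14, adjusted p = 2.72e-15). All 8 values were above the highest epithelial-like value. Cdt1, the partner of Cdc6 in helicase loading, was 22.7, 24.6, 21.3 and 21.4 CPM against 3.60 in the mean of epithelial-like cells (2.77 ± 0.23, edgeR adjusted p = 4.77e-13), but the gene Gm20388 overlaps it on the same strand, so its counts are uncertain. Pcna was 114 to 136 CPM (0.97 ± 0.09, edgeR adjusted p = 6.59e-12) and Mcm5 13.1 to 20.6 CPM (1.74 ± 0.22, adjusted p = 2.16e-08). Gins2, a subunit of the replicative helicase complex, was the 1 gene called lower, by edgeR, at -0.72 ± 0.25 (adjusted p = 0.0117). The medians were 1.01 over the G2/M genes and 1.36 over the S genes, against -0.24 over all genes tested.

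**Figure D2:**
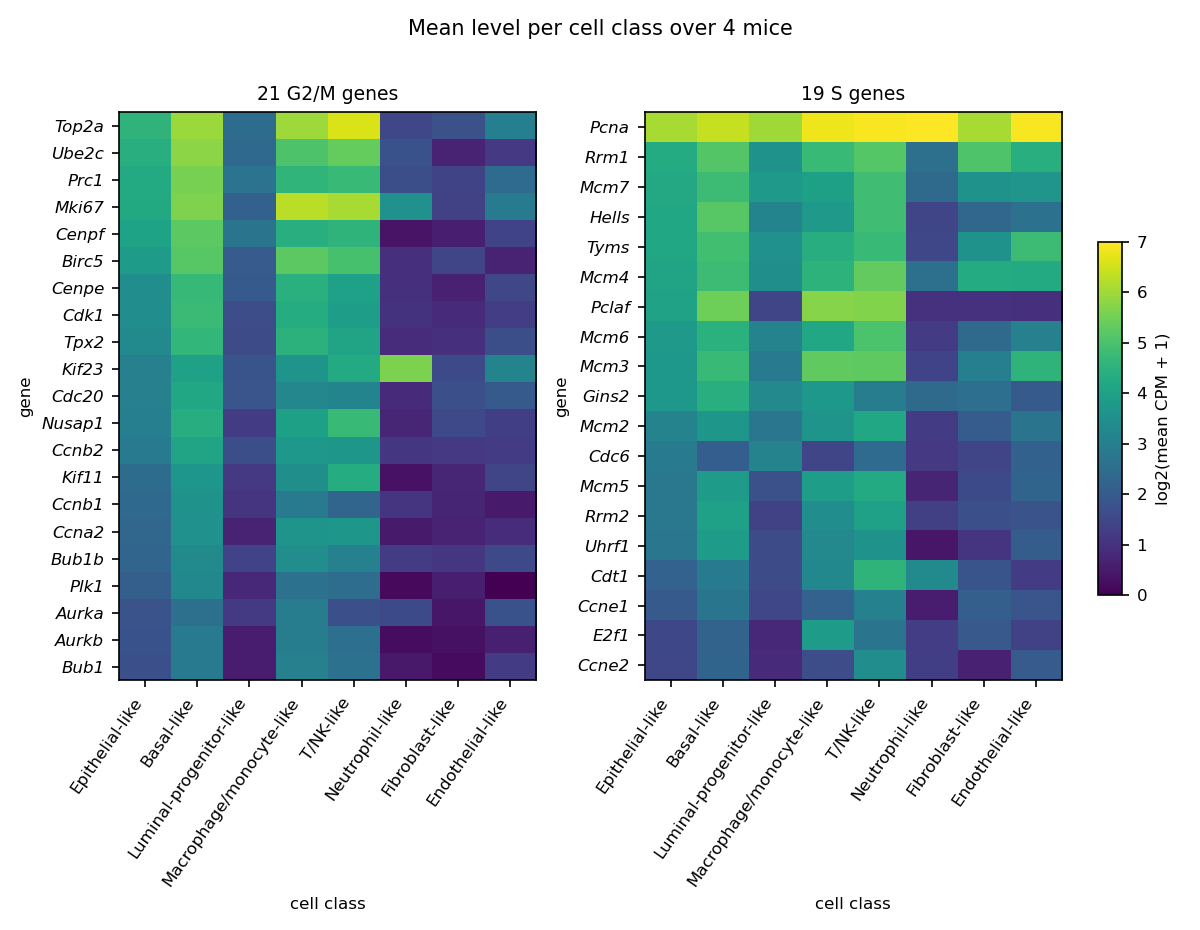
Mean level of each gene over the 4 mice as log2(mean CPM + 1) in 8 cell classes, for G2/M genes (left) and S genes (right), which are sorted by their level in epithelial-like cells. Rows are to be read across classes: basal-like, macrophage-like and T and NK-like cells are the bright columns, Kif23 is bright in neutrophil-like cells (48.3 CPM), and Pcna is bright in every class.

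In neutrophil-like cells 18 G2/M and 15 S genes were called lower, where 46.9% of 14841 genes were called lower, and 1 G2/M and 2 S genes were called higher, where 34.4% were. The gene called higher among the G2/M genes was Kif23, at 44.6, 59.2, 39.4 and 49.9 CPM against 8.43, 7.67, 7.25 and 5.93 CPM in epithelial-like cells, with no overlap (log2 fold change 3.42 ± 0.13, edgeR adjusted p = 1.53e-15). The annotation has no other gene over Kif23 (chr9:61915905-61946774, minus strand, GRCm38). Cenpf, a kinetochore protein, had 0, 0, 0.311 and 0.810 CPM against 13.6 to 17.3 CPM (-4.99 ± 0.43, edgeR adjusted p = 1.13e-09).

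Pcna was 156, 130, 140 and 85.0 CPM in neutrophil-like cells (1.61 ± 0.11, edgeR adjusted p = 1.82e-11) and Pclaf was 0.365 to 1.89 CPM (-3.12 ± 0.32, edgeR adjusted p = 1.74e-08). The clamp gene and the gene of its binding partner thus moved in opposite directions in the same cells. Cdt1 was the other S gene called higher, with the same doubt as above. Mki67 stood at 13.1, 13.9, 7.76 and 7.56 CPM in neutrophil-like cells, with a log2 fold change of -0.07 ± 0.15 that did not pass (edgeR adjusted p = 0.683). In CPM it was below the epithelial-like value in every mouse. The fold changes carry the TMM scaling of the edgeR fit and the CPM do not, so the 2 can differ. Top2a (-2.92 ± 0.29) and Mcm5 (-2.59 ± 0.42) were called lower. The median was -2.47 over the G2/M and -1.72 over the S genes against -0.45 over all genes tested.

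Fibroblast-like cells had 21 of 21 G2/M and 13 of 19 S genes called lower, where 37.8% of 15535 genes were and 36.2% were called higher, and endothelial-like cells had 18 G2/M and 9 S genes called lower, where 34% of 14898 genes were and 27.5% were called higher. The spindle crosslinker Prc1 was 1.40 to 1.87 CPM in fibroblast-like cells against 17.8 to 19.3 CPM (log2 fold change -3.43 ± 0.16, edgeR adjusted p = 2.49e-08). Ube2c, the enzyme that feeds the anaphase-promoting complex, was 0.243 to 1.23 CPM there (-4.87 ± 0.26, adjusted p = 6.62e-08). Both were far under the lowest epithelial-like mouse.

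Pclaf (-3.97 ± 0.24) and the chromatin remodeller Hells (-2.12 ± 0.14) fell most clearly among the S genes of fibroblast-like cells by edgeR, with adjusted p values of 1.44e-07 and 3.38e-07. In endothelial-like cells the same held for Ube2c (-4.13 ± 0.35, adjusted p = 5.96e-07), Birc5, a subunit of the chromosomal passenger complex (-4.76 ± 0.43, 1.05e-06), Pclaf (-4.19 ± 0.38, 1.25e-06) and Gins2 (-2.27 ± 0.28, 1.62e-05), again by edgeR. The S genes called higher by edgeR were Rrm1, the large subunit of ribonucleotide reductase, in fibroblast-like cells (0.80 ± 0.12), and Pcna (0.67 ± 0.11), Mcm3 (0.76 ± 0.21) and the thymidylate synthase gene Tyms (0.46 ± 0.14) in endothelial-like cells. Medians over the G2/M genes were -2.90 and -2.56, and over the S genes -1.24 and -0.72, against -0.03 and -0.13 over all genes tested.

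The Mki67 level in single mice was 0.463 to 2.49 CPM in fibroblast-like and 1.82 to 16.9 CPM in endothelial-like cells, the highest being PCSp 2, whose single G2/M-high endothelial-like cell held 70.5% of the G2/M gene UMIs of its class in that mouse. Top2a was 1.70 to 2.70 and 1.51 to 15.8 CPM, Mcm5 0.622 to 3.39 and 2.15 to 4.52 CPM, and Pcna 58.9 to 71.5 and 101 to 141 CPM. In B and plasma-like cells, of which no mouse had over 75, Cdt1 had a mean of 41.5 CPM. The Cdt1 value was picked after it was seen and is open to the same doubt over Gm20388.

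The balance of S to G2/M genes was taken as the log2 ratio of their summed UMIs in a class of a mouse. Epithelial-like cells had ratios of 0.40, 0.22, 0.32 and 0.52 (PSp 1, PSp 2, PCSp 1, PCSp 2), from 299, 234, 222 and 237 CPM of S genes and 226, 202, 177 and 165 CPM of G2/M genes. Basal-like cells had -0.13, -0.38, -0.37 and 0.03. Luminal-progenitor-like cells had 2.79, 0.66, 2.62 and 1.82, fibroblast-like cells 2.60 to 3.19, endothelial-like cells 1.54 to 3.15 and neutrophil-like cells 0.69 to 1.54.

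Every ratio of fibroblast-like and endothelial-like cells thus lay above every ratio of epithelial-like, basal-like, macrophage-like and T and NK-like cells. Over the 8 classes plotted and the 4 mice, the sum of the S genes spanned 129 to 557 CPM and that of the G2/M genes 19.6 to 687 CPM. These class ratios are a description and depend on the most abundant genes. Without Pcna and Pclaf in the S sum and Top2a and Mki67 in the G2/M sum, the neutrophil-like ratio changed sign to -0.49, -0.93, -0.26 and -0.75, and the epithelial-like ratio was 0.21, -0.043, 0.0029 and 0.32.

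**Figure D3:**
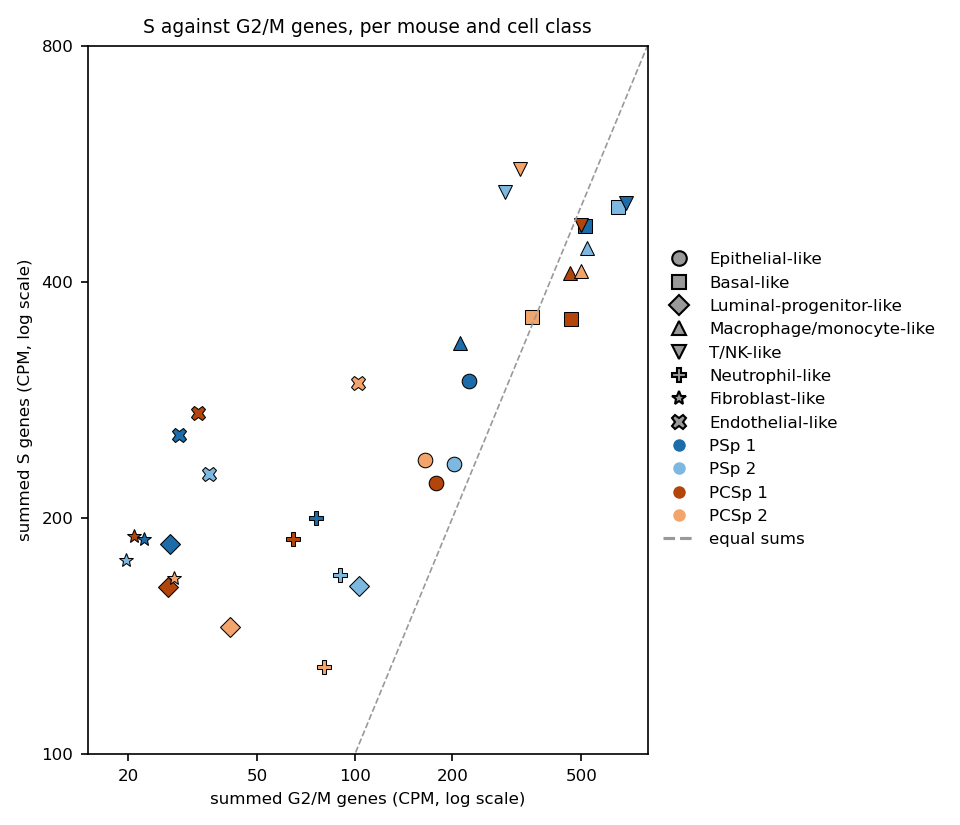
Summed S genes against summed G2/M genes in CPM on log axes, 1 point per mouse and cell class, shape for the class and colour for the mouse, with the dashed line at equal sums. The classes spread far more along the G2/M axis (19.6 to 687 CPM) than along the S axis (129 to 557 CPM), and macrophage-like cells of PSp 1 lie apart from those of the other 3 mice.

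In macrophage-like cells the ratio was 0.66 in PSp 1 and -0.23, -0.16 and -0.27 in the other mice. The G2/M genes summed to 211 CPM in PSp 1 and to 519, 460 and 499 CPM in the others, while the S genes summed to 334, 442, 410 and 413 CPM. PSp 1 thus stood apart in the macrophage-like G2/M sum. Its 16 G2/M-high cells were shallow, with a median of 1656 UMIs against 9899 (PSp 2), 4571 (PCSp 1) and 7014 (PCSp 2). The part of this depth in the low sum was not tested. In T and NK-like cells the ratio was -0.45, 0.84, -0.08 and 0.78, with G2/M sums of 687, 291, 500 and 323 CPM, and the genotypes overlapped.

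Between genotypes the difference in the ratio (PCSp minus PSp) was 0.11 in epithelial-like, 0.09 in basal-like, -0.43 in macrophage-like and 0.15 in T and NK-like cells. Exact permutation p values were 0.667, 0.667, 0.667 and 1, where 2 mice against 2 cannot go under 0.3333. The genotypes overlapped in each of these 4 classes. The unnamed epithelial cells had ratios of 2.19 and 1.86 in PSp against 0.985 and 1.52 in PCSp mice, a difference of -0.77 without overlap (exact permutation p = 0.3333). With no doublets removed their ratios were 1.14 and 0.635 against 0.815 and 1.13, and with the cell cycle genes kept in the clustering 2.70 and 2.68 against 2.69 and 2.16, and both overlapped.

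The genotype comparison asks whether the floxed Chd1 genotype goes with other levels of these genes after castration. In epithelial-like cells all 21 G2/M genes and 16 of 19 S genes were lower in PCSp than in PSp mice, with median log2 fold changes of -0.34 and -0.30 against -0.01 over the 16442 genes tested. No gene passed, so 0% of genes and 0 of the 40 were called by edgeR. At an unadjusted p under 0.05 edgeR had 10 of the 40 lower and 0 higher, where 3.69% of all genes were lower, and DESeq2 called 0 of the 40, where it called 1.19% of genes. Each PCSp mouse was lower than each PSp mouse for 18 G2/M and 8 S genes, where 17.3% of all genes did, and for 0 of the 40 above, where 22.4% did. The 40 genes are measured in the same cells and are no 40 independent measurements.

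Cdk1, the kinase that starts mitosis, had 12.0 and 11.3 CPM in PSp against 8.35 and 7.19 CPM in PCSp mice, with PSp 1 before PSp 2 and PCSp 1 before PCSp 2. Its log2 fold change was -0.61 ± 0.12 (edgeR adjusted p = 0.417). Ccnb2, a B-type cyclin that activates it, was 7.37 and 8.30 against 5.40 and 5.32 CPM (-0.57 ± 0.13, edgeR adjusted p = 0.462). In both genes each PSp mouse was above each PCSp mouse, and neither passed.

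Mki67 had 23.1 and 18.6 against 14.2 and 15.6 CPM (-0.50 ± 0.13, edgeR adjusted p = 0.503). Cdc20, an activator of the anaphase-promoting complex, had 8.94 and 7.76 against 6.23 and 5.95 CPM (-0.47 ± 0.12, adjusted p = 0.503). Ube2c had 22.8 and 22.96 against 19.01 and 15.5 CPM (-0.43 ± 0.12, edgeR adjusted p = 0.505). The groups did not overlap in any of the 3. Top2a had 28.9 and 22.1 against 19.6 and 19.4 CPM (-0.41 ± 0.13, edgeR adjusted p = 0.576).

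Among the S genes, Mcm7 was 20.2 and 18.8 against 14.4 and 17.3 CPM (-0.32 ± 0.12, edgeR adjusted p = 0.636), with the miRNA genes Mir106b, Mir25 and Mir93 inside it. Tyms was 18.6 and 17.7 against 16.2 and 15.9 CPM (-0.20 ± 0.08, adjusted p = 0.656), and Mcm2 was 8.58 and 8.17 against 7.10 and 7.06 CPM (-0.26 ± 0.11, adjusted p = 0.659). These 3 did not overlap between genotypes, and none passed.

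In other S genes 1 mouse stood out. Rrm2 was 9.26 and 5.36 against 3.98 and 5.20 CPM (-0.69 ± 0.30, edgeR adjusted p = 0.661), and Ccne1, the cyclin of the G1 to S transition, was 4.22 and 2.67 against 2.43 and 2.49 CPM (-0.50 ± 0.25, edgeR adjusted p = 0.677). PSp 1 was the high mouse in both. Mcm5 had 7.44 and 5.78 against 5.28 and 5.61 CPM (-0.30 ± 0.16), and Pcna 74.8 and 65.1 against 66.8 and 60.2 CPM, where the groups overlapped (-0.16 ± 0.09). Without PSp 1 the median of the S genes was -0.10 and that of the G2/M genes -0.23.

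**Figure D4:**
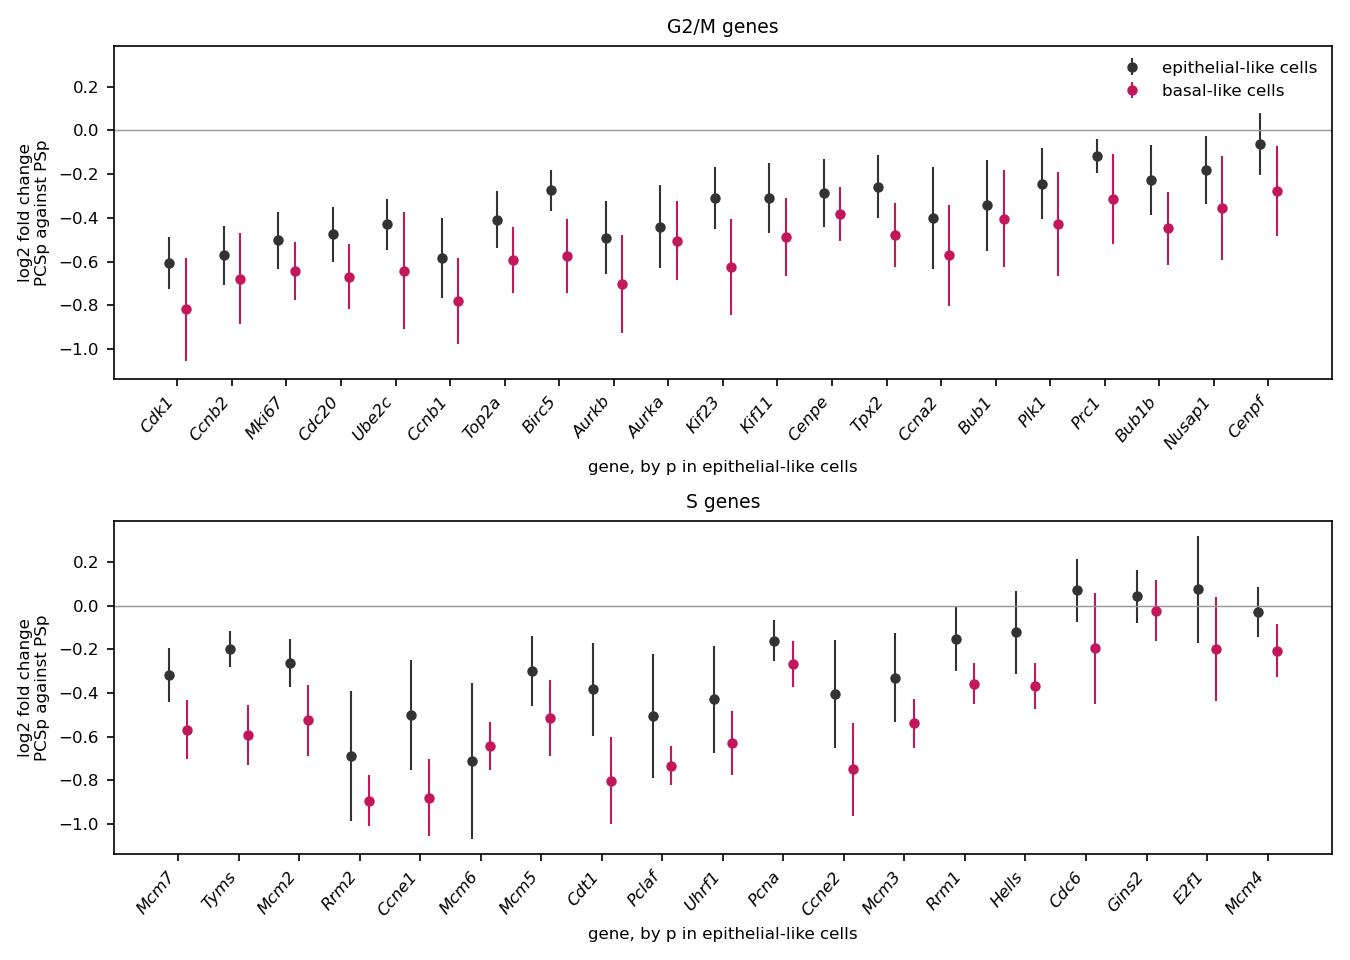
Log2 fold change of each gene, PCSp against PSp, in epithelial-like (grey) and basal-like (pink) cells, with bars of 1 SE from the edgeR fit, sorted by p in epithelial-like cells. All 21 G2/M genes are below 0 in both, basal-like values are lower in most genes, and no gene passed an adjusted p of 0.05.

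Basal-like cells, where most cycling epithelial cells were, had lower values in PCSp mice for 40 of 40 genes, with medians of -0.57 over the G2/M and -0.54 over the S genes against -0.004 over 13660 genes. edgeR called 0 of the 40, where 0.117% of genes were called in either direction, and had 31 of the 40 lower at an unadjusted p under 0.05, where 6.71% of genes were lower. DESeq2 called 5 of the 40, where it called 1.52% of genes, and edgeR without a filter on low counts called 23, where it called 4.18%, so the call depends on the tool and filter. Each PCSp mouse was lower than each PSp mouse for 17 G2/M and 16 S genes, where 20.3% of all genes did.

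Pclaf was 53.4 and 52.5 CPM in the basal-like cells of PSp mice and 32.3 and 33.0 CPM in those of PCSp mice (-0.73 ± 0.09, edgeR adjusted p = 0.0614). Rrm2 was 20.1 and 18.97 against 10.5 and 11.03 CPM (-0.89 ± 0.12, edgeR adjusted p = 0.0659). The 2 mice of a genotype lay close together in both genes. Mki67 was 54.4 and 63.4 against 41.5 and 35.6 CPM (-0.64 ± 0.13, edgeR adjusted p = 0.154), Top2a 66.7 and 79.1 against 55.1 and 43.5 CPM (-0.59 ± 0.15, 0.209), Mcm5 13.8 and 18.3 against 11.8 and 11.1 CPM (-0.51 ± 0.17, 0.290) and Pcna 91.5 and 87.7 against 82.0 and 70.0 CPM (-0.27 ± 0.11, 0.337), none of which overlapped or passed.

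The share of G2/M-high basal-like cells was 6.12% ± 0.258 (SD, n = 2) in PSp and 4.02% ± 0.570 in PCSp mice, a difference of -2.10 points, and that of epithelial-like cells 2.18% ± 0.160 and 1.66% ± 0.0775, a difference of -0.521 points. For S-only cells the differences were -0.511 points in basal-like cells (1.34% ± 0.162 and 0.829% ± 0.00837) and -0.166 points in epithelial-like cells (0.561% ± 0.230 and 0.395% ± 0.00356). The epithelial-like S-only difference rested on PSp 1, at 0.723%, while PSp 2 was at 0.398% and the PCSp mice at 0.397% and 0.392%. In each of these 4 comparisons both PCSp mice were below both PSp mice, with an exact permutation p of 0.3333, the smallest that 2 mice against 2 allow. For the G2/M-high share, no single basal-like sub-cluster had this order. The histone-led one had 67.5% and 74.2% in PSp against 84.0% and 82.8% in PCSp mice. The largest had 0.560% and 0.322% against 1.07% and 0.564%, with 358 and 311 against 654 and 532 cells. The sub-cluster of 1018 cells had 5.20% and 7.74% against 5.79% and 2.31%.

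The histone-led basal-like sub-cluster had 42 and 38 cells in the PSp and 28 and 30 in the PCSp mice. Without it the basal-like G2/M genes summed to 301 and 331 CPM in the PSp and 308 and 197 CPM in the PCSp mice, so the genotypes overlapped, and the S genes to 322 and 389 against 298 and 296 CPM, which did not overlap. Then 20 of 21 G2/M and 18 of 19 S genes were still lower in the mean of the PCSp mice, with median log2 ratios of -0.33 and -0.36. In all epithelial-like cells without their own cluster led by Hist1h1b, 17 of 21 and 11 of 19 were lower, with medians of -0.09 and -0.09.

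Depth moved with genotype as well: basal-like cells had medians of 20467 and 17537 UMIs in the PSp and 12637 and 11805 UMIs in the PCSp mice, and its part in the gene levels was not tested. Epithelial-like medians were 10438.5 and 13649.5 against 9258 and 7576 UMIs. With all cells thinned to 3000 UMIs the basal-like share was 8.76% and 10.3% against 5.41% and 5.63%. The unnamed epithelial cells went the other way, with G2/M sums of 40.6 and 43.4 CPM in the PSp and 85.3 and 60.1 CPM in the PCSp mice. That order did not hold when no doublets were removed (93.1 and 123 against 101 and 89.8 CPM).

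In luminal-progenitor-like cells 16 G2/M genes were tested and all 16 were lower in PCSp mice (median -0.94), as were 17 of 19 S genes (median -0.24). The G2/M genes summed to 26.8 and 103 CPM in the PSp and 26.5 and 41.3 CPM in the PCSp mice. The genotypes thus overlapped, and PSp 2 was the high mouse. Each PCSp mouse was lower than each PSp mouse for 3 of the 16 G2/M and 6 of the 19 S genes, where 2259 of all 13007 genes were. edgeR called 0 of the 35, where 0.00769% of genes were called, with 3 lower at an unadjusted p under 0.05, where 4.41% of genes were, and DESeq2 called 0. Pclaf was 2.54 and 2.76 against 0.968 and 0.699 CPM (-1.65 ± 0.35, edgeR adjusted p = 0.350), without overlap. Ccnb2 was 1.35 and 5.78 against 0.904 and 0.816 CPM (-2.13 ± 0.72, edgeR adjusted p = 0.509), and Mki67 1.91 and 8.68 against 1.16 and 2.45 CPM (-1.73 ± 0.74, edgeR adjusted p = 0.589), with PSp 2 the high mouse. That mouse had 6 of the 8 G2/M-high cells of this class. Top2a (-0.30 ± 0.51), Pcna (-0.10 ± 0.11) and Mcm5 (-0.62 ± 0.38) overlapped between genotypes in their CPM.

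In macrophage-like cells 17 of 21 G2/M and 9 of 17 S genes tested were higher in PCSp mice, with medians of 0.22 and 0.12. edgeR called 0 of the 38, where 0.0798% of genes were called in either direction, with 3 higher at an unadjusted p under 0.05, where 3.29% of genes were, and DESeq2 called 0. Top2a was 33.8 and 60.9 against 72.0 and 82.1 CPM (0.65 ± 0.24, edgeR adjusted p = 0.660) and the checkpoint kinase gene Bub1 2.63 and 6.43 against 9.04 and 11.1 CPM (1.09 ± 0.41, adjusted p = 0.671), both without overlap. Each PCSp mouse was higher than each PSp mouse for 6 of 21 G2/M and 3 of 17 S genes, where 2386 of all 10022 genes were. Each was lower for 0 and 1 of them, where 1423 of all genes were. Mki67 (0.38 ± 0.29), Pcna (-0.08 ± 0.12) and Mcm5 (0.13 ± 0.37) overlapped.

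These macrophage-like values rested on PSp 1, whose G2/M genes were low. Without PSp 1 the median of the G2/M genes was -0.13, and without PSp 2 it was 1.15, with 5 of the 38 genes called, where 0.54% of genes were. The share of G2/M-high macrophage-like cells went the other way, 6.91% ± 1.86 in PSp and 5.94% ± 1.01 in PCSp mice (exact permutation p = 0.667).

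In T and NK-like cells 10 of 15 G2/M and 9 of 15 S genes tested were lower in PCSp mice. edgeR called 0 of the 30, where 0.458% of genes were called, with 1 lower at an unadjusted p under 0.05, where 4.38% of genes were, and DESeq2 called 0. That gene was Nusap1, at 42.7 and 20.5 against 21.9 and 17.9 CPM (-0.68 ± 0.31, edgeR adjusted p = 0.606). PSp 1 was high in it, as it was in Cdk1 (22.7 and 11.5 against 13.0 and 8.04 CPM, -0.66 ± 0.39), and the genotypes overlapped in both. Mki67 (0.05 ± 0.21), Top2a (-0.27 ± 0.22), Pcna (-0.14 ± 0.13) and Mcm5 (0.24 ± 0.31) did not pass either.

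Few of the 40 genes were abundant enough to be tested in the other classes: 9 in neutrophil-like, 17 in fibroblast-like and 8 in endothelial-like cells. edgeR and DESeq2 called 0 of them in each class, where edgeR called 0.0876%, 0% and 0% of all genes, and edgeR had 1, 1 and 0 at an unadjusted p under 0.05. At that p 4.89% of genes were lower in neutrophil-like and 2.01% higher in fibroblast-like cells. The genes were Mki67 in neutrophil-like cells (-0.86 ± 0.27, edgeR adjusted p = 0.388, without overlap) and E2f1 in fibroblast-like cells (1.20 ± 0.51, edgeR adjusted p = 0.995), where it was 1.46 and 1.96 against 2.93 and 5.18 CPM. In neutrophil-like cells each PCSp mouse was lower than each PSp mouse for 1 of 3 G2/M and 0 of 6 S genes, where 1363 of all 9129 genes were. Each was higher for 0 and 1 of them, where 2131 of all genes were.

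In neutrophil-like cells Mcm4 (0.79 ± 0.37) and Pcna (-0.40 ± 0.21) did not pass. In fibroblast-like cells neither did Mcm6 (-1.03 ± 0.59), Top2a (0.27 ± 0.47), Pcna (-0.12 ± 0.15) or Mcm5 (0.11 ± 0.74). The same was true of Mcm4 (0.43 ± 0.29), Pcna (0.25 ± 0.17) and Top2a (0.76 ± 0.89) in endothelial-like cells.

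Whether the genotype effect differed between epithelial-like cells and another class was tested directly as an interaction. edgeR and DESeq2 called 0 of the 40 genes in each of the 5 classes, where edgeR called 0.027% of genes for neutrophil-like, 0.0541% for macrophage-like, 0.509% for T and NK-like, 0% for fibroblast-like and 0.114% for endothelial-like cells. At an unadjusted p under 0.05 edgeR had 4, 7, 2, 3 and 6 of the 40, where 6.38%, 5.07%, 5.41%, 4.8% and 4.62% of genes were, in the same order of classes. Without PSp 2, 10 of the 40 were called for macrophage-like cells, where 1.22% of genes were. A different effect in another class was thus not shown for any of the 40 genes with all mice.

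The other genes of the cell cycle were taken from 6 wider lists of 190 genes in all. In epithelial-like cells edgeR called none of them between genotypes, 61 of 69 other mitotic genes were lower in PCSp mice (12 at an unadjusted p under 0.05, median -0.26), and 41 of 58 other S phase and replication genes (1, median -0.13), where 3.69% of all genes were lower at that p. Genes of smallest p were Cks2, a Cdk1 partner (-0.43 ± 0.07, edgeR adjusted p = 0.400), and Anln, an anillin of the cleavage furrow (-0.65 ± 0.12, 0.409), among the mitotic genes, and the thymidine kinase gene Tk1 (-0.53 ± 0.16, 0.548) among the S phase genes. In basal-like cells 68 of 69 and 54 of 58 were lower, with medians of -0.49 and -0.34, and none passed.

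The lists of G1 cyclins and kinases, of CDK inhibitors and of RB, E2F and MuvB regulators follow. The 10 G1 cyclins and kinases had a median of -0.06 in epithelial-like cells, with Ccnd1 (-0.23 ± 0.11, edgeR adjusted p = 0.667) and Cdk2 (-0.16 ± 0.15, 0.798) the genes of smallest p. Among the 8 CDK inhibitors 5 were lower (median -0.17), with Cdkn2b at -0.42 ± 0.08 (edgeR adjusted p = 0.417) and Cdkn1c at 0.32 ± 0.09 (0.517). Among the 22 regulators of the RB, E2F and MuvB complexes 15 were lower (median -0.17), with Tfdp2 at 0.31 ± 0.09 (edgeR adjusted p = 0.516) and E2f4 at -0.21 ± 0.08 (0.626).

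The list named after the G2 checkpoint and anaphase-promoting complex has 23 genes, some of neither group, such as Skp2. Of these 23 genes 14 were lower (median -0.03), with Skp2 at -0.46 ± 0.16 (edgeR adjusted p = 0.614) and Anapc10 at -0.18 ± 0.08 (0.667). Of the lists that act in S phase and mitosis, the macrophage-like cells had 47 of 69 other mitotic genes and 32 of 58 other S phase genes called higher than epithelial-like cells by edgeR, where 30.6% of all genes were, and T and NK-like cells 38 and 46, where 28.8% were. Neutrophil-like cells had 45 and 34 called lower, where 46.9% of all genes were, and fibroblast-like cells 53 and 31, where 37.8% were.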

How the data were processed

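The deposited values are UMI counts per gene and barcode, made by the authors with Cell Ranger 6.1.2 on mm10, per the submitters' processing notes. Each mouse is 1 library, and replicate numbers only name mice in accession order. No deposited column of samples was left aside (0). Barcodes with at least 300 genes, 500 UMIs and at most 20% mitochondrial UMIs were kept. The automatic threshold of Scrublet marked 2, 0, 64 and 0 doublets, so the cells of highest score were removed instead (237, 308, 545 and 572, in the order PSp 1, PSp 2, PCSp 1, PCSp 2), at 0.8% per 1000 barcodes. Clustering in scanpy 1.11.5 used 2000 variable genes, 30 principal components, 15 neighbours and Leiden resolution 1. A cluster was named when at least 3 markers of a type had a log2 fold of 1 and were in 10% of its cells, unless its 10 leading genes held more markers of another type, or held none of its own while its median UMI count was under 1 in 3 of that of the sample. Epithelial sub-clusters of 1202 and 91 cells, which met 4 of 8 luminal progenitor and 6 of 6 basal markers, stayed unnamed because other types led.

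Counts were summed per mouse and class and tested with edgeR 4.0.16 (quasi-likelihood, TMM, filterByExpr, two-sided, Benjamini-Hochberg over all genes, threshold 0.05). The epithelial-like genotype fit had 2 residual degrees of freedom, 3.05 prior degrees and a biological coefficient of variation of 15.5%. DESeq2 1.42.0 was the alternative tool. Class contrasts had the mouse as a block. Shares of cells and S to G2/M ratios were compared by exact two-sided permutation of the mice. Levels are counts per 1000000 (CPM) of the UMIs of a class in a mouse, without the TMM scaling that the fold changes carry. Alternatives were other scaling, no filter on low counts, each mouse left out, a limit of 10% mitochondrial UMIs, no doublet removal, resolution 2, clustering with the cell cycle genes, other depths of thinning and 1 more gene for a call. Leaving out Kif23, the shallow macrophage-like cluster or the histone-led clusters, and the interaction alternatives, were chosen after seeing the data. Members and gene lists were chosen with earlier results of these data known.

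Genes named are Mki67, Top2a, Pcna and Mcm5 in every class tested, the 5 G2/M and 5 S genes of smallest p in the epithelial-like genotype test, the 2 genes of smallest p in the other classes, 2 per phase in class contrasts, and 2 per wider list. Others were chosen after their values were seen. An allele that all the mice share and 1 gene of a wider list are not reported here. Gene positions come from GENCODE M21, which held 32158 of the 32285 identifiers, and promoters from RefSeq (GRCm38.p6). The annotation places another gene on the same strand over 8 of the 40 genes (Top2a, Nusap1, Tpx2, Kif11, Pclaf, Mcm7, Rrm1 and Cdt1), whose counts are uncertain to that extent. The scripts (Python 3.11.15, numpy 2.4.6, scipy 1.17.1, pandas 2.3.3, R 4.3.3) were tested on simulated data.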

Additional observations from a re-analysis of the deposited data

How the results depend on the processing

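Against the values reported, 305 recomputed values of the comparisons were taken as the same. This meant a count within a fixed factor, a median within the spread between mice, or a difference of the same sign. A further 18 counts or medians moved and 13 differences changed sign, and the cause was not tested. Without a filter on low counts, edgeR called 23 of the 40 genes between genotypes in basal-like, 11 in luminal-progenitor-like and 2 in endothelial-like cells, and 3, 1 and 2 in the interactions of macrophage-like, fibroblast-like and endothelial-like cells. DESeq2 called 5 in basal-like cells. In the 17 alternative fits that called any of the 40 genes, 0.227% to 4.18% of all genes were called. With 1 mouse left out, the count called ranged from 0 to 1 in neutrophil-like, T and NK-like, basal-like and luminal-progenitor-like cells and from 0 to 5 in macrophage-like cells, and in the interactions from 0 to 10 (macrophage-like, 10 without PSp 2), 0 to 2 (T and NK-like), 0 to 1 (fibroblast-like) and 0 to 1 (endothelial-like); the lone mouse of a genotype is then assumed to vary like the others. The S gene median in epithelial-like cells ranged from -0.35 to -0.10. The genotype difference in the G2/M-high share of macrophage-like cells was 1.13 points at 3000 UMIs and ranged from -2.29 to 0.343 with a mouse left out, and that of T and NK-like cells was -0.901 at 3000 UMIs, -3.37 unthinned, -0.0806 with 1 more gene needed, and -0.395 to 0.721 with a mouse left out. The S-only difference of macrophage-like cells was 0.267 with 1 more gene needed and ranged from -0.764 to 0.0180. The log2 S to G2/M difference ranged from -0.11 to 0.29 in basal-like, -0.88 to 0.012 in macrophage-like and -0.49 to 0.80 in T and NK-like cells.

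Of the genes named, 21 genotype values changed sign. With a mouse left out, Mki67 ranged from -0.096 to 1.08, Mcm5 from -0.39 to 0.93 and Pcna from -0.19 to 0.013 in macrophage-like cells, Mki67 from -0.35 to 0.29, Top2a from -0.66 to 0.24 and Mcm5 from -0.053 to 0.59 in T and NK-like cells, Mcm6 from -1.67 to 0.32, Top2a from -0.014 to 0.58 and Mcm5 from -1.62 to 0.78 in fibroblast-like cells, and Top2a from -0.65 to 2.39 in endothelial-like and from -0.82 to 0.60 in luminal-progenitor-like cells. With no doublet removal, Mki67 was -0.025 in T and NK-like cells and Top2a -0.68 in endothelial-like and 0.24 in luminal-progenitor-like cells, where Top2a was also 0.067 at 10% mitochondrial UMIs. At resolution 2, Pclaf (1.07), Mki67 (0.21) and Top2a (0.58) changed sign in luminal-progenitor-like cells. No paired analysis was possible because the replicate numbers only name mice in accession order. Depth limits the rare classes, where few of the 40 genes could be tested, and 2 mice per genotype keep every permutation p at 0.3333 or above.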
